A study of Mus musculus with 12 samples.

Results

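Mast cell genes were followed across colon and urinary bladder of control mice and of mice that had lost YAP and TAZ in smooth muscle. They were 10 genes of the 54532 in the deposited tables, chosen by name: the chymases *Mcpt1*, *Mcpt2*, *Mcpt4*, and *Cma1*, the tryptases *Tpsb2* and *Tpsab1*, the carboxypeptidase *Cpa3*, the histidine decarboxylase *Hdc*, and the IgE receptor chains *Ms4a2* and *Fcer1a*. RNA came from whole distal colon and whole bladder of 9 male mice, in 12 libraries with 3 per genotype and tissue. All mice carried floxed *Yap1* and *Wwtr1* on a mixed background and received 1 mg of tamoxifen a day in 5 injections at 5 to 7 weeks of age, with tissue taken on day 7 after the first injection. The Y/T KO mice also carried a tamoxifen-inducible Cre recombinase (CreERT2) under the *Myh11* promoter, a transgene on the Y chromosome that acts in smooth muscle, whereas the control mice (Ctrl) were Cre-negative. Ctrl colon came from mice 788, 786, and 787, Y/T KO colon from 759, 783, and 780, Ctrl bladder from 784, 785, and 788, and Y/T KO bladder from 782, 783, and 780, and values are given in these orders. Mice 788, 783, and 780 gave both tissues.

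Mast cells are resident granulocytes of connective tissue and mucosae. IgE bound to a receptor built from the *Fcer1a*, *Ms4a2*, and *Fcer1g* chains triggers release of granules that hold histamine, which *Hdc* makes, together with proteases bound to serglycin (*Srgn*). In mice, connective tissue mast cells classically store the chymases of *Mcpt4* and *Cma1*, the tryptases of *Tpsb2* and *Tpsab1*, and the carboxypeptidase of *Cpa3*, whereas mucosal mast cells of the gut store the chymases of *Mcpt1* and *Mcpt2*.

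The 4 chymase genes lie within 120.9 kb of chromosome 14 and the 2 tryptase genes within 25.9 kb of chromosome 17 (GRCm38, GENCODE M21). *Cma1* spans chr14:55941451-55944675 on the minus strand, *Mcpt1* chr14:56017971-56020384 and *Mcpt2* chr14:56042041-56044642 on the plus strand, and *Mcpt4* chr14:56059629-56062313 on the minus strand. *Tpsab1* spans chr17:25343245-25345562 (minus) and *Tpsb2* chr17:25366305-25369098 (plus), *Cpa3* chr3:20215620-20242181 (minus), *Hdc* chr2:126593667-126619299 (minus), *Ms4a2* chr19:11615523-11623719 (minus), and *Fcer1a* chr1:173221284-173227214 (minus). The microRNA gene *Mir7007* was the only annotated gene that overlapped a member, lying within *Cpa3* on the same strand.

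The chymases are related copies, *Mcpt1*, *Mcpt2*, and *Mcpt4* most closely, so the assignment of reads between them bears on how these genes compare between tissues. The coding sequences of *Mcpt1* and *Mcpt4* were 86.5% identical, those of *Mcpt1* and *Mcpt2* 82.1%, and those of *Mcpt2* and *Mcpt4* 79.5%, whereas *Cma1* shared 66.0% to 68.7% with the other 3. The tryptases were 75.8% identical. No stretch of 50 bases was shared exactly between the transcripts of any of these pairs. How reads were assigned among the copies was not checked here, and the chymase shares and the ratios of *Cma1* to other members depend on it. The first 60 coding bases of the 3 closest chymases show how nearly alike they are, with capitals where a base differs from *Mcpt4* (2 bases in *Mcpt1* and 3 in *Mcpt2*), read from GENCODE M21.
Mcpt4: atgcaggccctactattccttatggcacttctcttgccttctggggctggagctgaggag
Mcpt1: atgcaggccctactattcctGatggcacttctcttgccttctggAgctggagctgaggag
Mcpt2: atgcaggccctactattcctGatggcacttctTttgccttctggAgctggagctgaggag

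The likeness of *Mcpt1* and *Mcpt4* extends upstream of the genes, where 86.4% of bases matched over the 250 bases before the transcript start, although 1 of the 2 was measured in colon and not in bladder and the other mainly in bladder. The 150 bases upstream of these 2 genes, of *Cma1*, and of *Cpa3* are shown (RefSeq, GRCm38.p6, 5′ to 3′ on the strand of the gene). *Mcpt1*, *Mcpt4*, and *Cpa3* were called between the tissues in both genotypes, whereas *Cma1* was called in neither. Capitals mark matches to the letters AGATAA or AGATAG or TGATAA or TGATAG on either strand, the core that GATA factors recognize. The windows are chr14:56017814-56017963 (plus) for *Mcpt1*, chr14:56062311-56062460 (minus) for *Mcpt4*, chr14:55944676-55944825 (minus) for *Cma1*, and chr3:20242182-20242331 (minus) for *Cpa3*.
Mcpt1: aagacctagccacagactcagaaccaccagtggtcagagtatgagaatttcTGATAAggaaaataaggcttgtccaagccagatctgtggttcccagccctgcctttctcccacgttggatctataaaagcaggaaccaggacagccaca
Mcpt4: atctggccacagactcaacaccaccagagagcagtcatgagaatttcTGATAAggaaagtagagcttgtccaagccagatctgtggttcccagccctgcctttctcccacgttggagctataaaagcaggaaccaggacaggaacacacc
Cma1: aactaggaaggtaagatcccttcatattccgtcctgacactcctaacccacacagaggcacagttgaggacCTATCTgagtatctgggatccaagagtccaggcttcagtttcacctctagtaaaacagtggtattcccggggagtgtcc
Cpa3: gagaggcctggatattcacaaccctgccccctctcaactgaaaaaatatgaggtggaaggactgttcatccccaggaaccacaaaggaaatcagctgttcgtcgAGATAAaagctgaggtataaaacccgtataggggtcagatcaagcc
Within 250 bases upstream, 7 of the 7 members with an entry in the promoter table held such a match, as did 26.5% of 32851 mouse promoters. In *Mcpt1* and *Mcpt4* it stood 99 and 103 bases upstream of the start, in the same letters. An E-box of the letters CATGTG or CACGTG, the kind that MITF recognizes, was present in 1 of the 7 (*Fcer1a*) and in 17.6% of all promoters. These matches describe the letters and do not show binding. *Mcpt2*, *Tpsb2*, and *Tpsab1* had no entry.

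Expression is given as TPM, each gene's share of the transcripts of a library after division by transcript length, so that genes can be compared within a library. Aligned sequence ran from 2.80 to 3.94 gigabases per library. A value of 0 can mark a failed estimate as well as absent RNA, since 5 genes in the colon and 3 in the bladder were listed at 0 in 1 library and at 5 TPM or more in the other 5. In whole tissue, fewer mast cells and less RNA per mast cell cannot be told apart. Of the floxed genes, *Yap1* ranged over 45.8 to 54.9 TPM (Ctrl) and 41.3 to 47 TPM (Y/T KO) in the colon, and over 98.6 to 110 TPM (Ctrl) and 69.4 to 72.1 TPM (Y/T KO) in the bladder (limma adjusted p = 0.697 and 0.0625). *Yap1* was thus lower in every Y/T KO bladder than in any Ctrl bladder (log2 -0.54, unadjusted p = 0.00025), whereas it overlapped in the colon, and *Wwtr1* overlapped in both tissues.

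**Figure D1:**
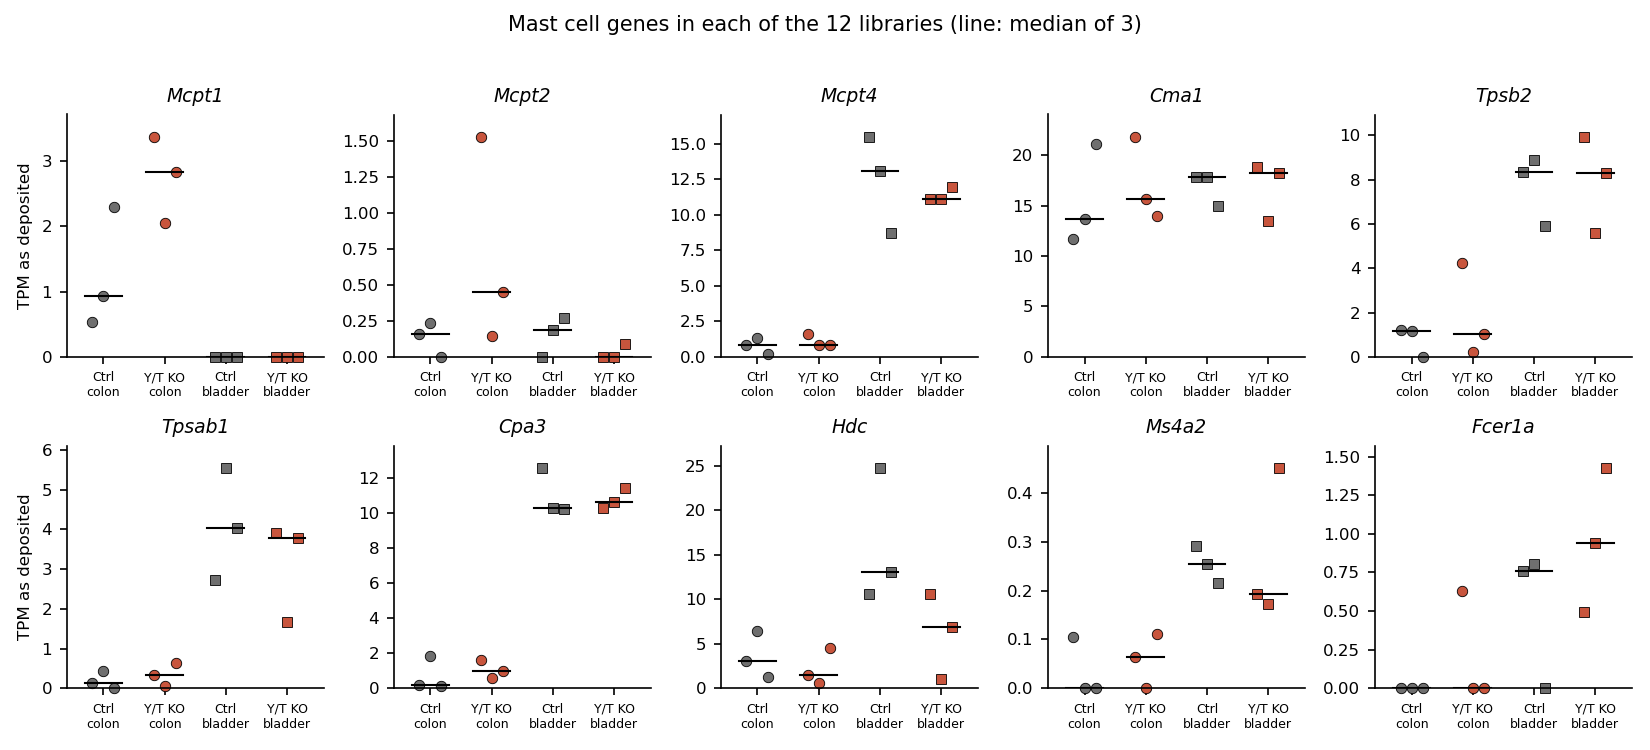
TPM of the 10 mast cell genes in each of the 12 libraries, by tissue and genotype, with a separate linear axis per gene and a line at the median of 3 libraries (grey, Ctrl; red, Y/T KO; circles, colon; squares, bladder). *Mcpt4*, *Tpsb2*, *Tpsab1*, and *Cpa3* were higher in every bladder library than in any colon library, *Mcpt1* was above 0 in colon alone, and *Cma1* overlapped between all 4 groups.

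The first question was how the mast cell genes differed between the tissues. In Ctrl mice *Cpa3*, *Mcpt4*, *Tpsab1*, and *Tpsb2* were 12.3- to 18.7-fold higher in bladder than in colon, *Mcpt1* was higher in colon, and *Cma1* was close to equal. These folds are on the scale of TPM + 0.1 and depend on it: with a pseudocount of 1 TPM the log2 differences were -2.78 (*Cpa3*), -2.75 (*Mcpt4*), -1.96 (*Tpsab1*), and -2.20 (*Tpsb2*), and without Ctrl colon of mouse 787 they were -3.66, -3.16, -3.33, and -2.37, all still called. Of the 8 members that passed the filter on low values, 5 passed an adjusted p of 0.05 in limma (1 higher and 4 lower in colon), beside 50.4% of all 19773 genes tested (25.1% higher and 25.3% lower). In Y/T KO mice 4 of 8 passed (1 higher and 3 lower), beside 51.3% of all genes (25.8% higher and 25.6% lower), with *Tpsb2* the one that no longer did. These shares lie near those of all genes, so the number of calls does not set the mast cell genes apart from other genes, and the account rests on the individual genes. The median log2 difference, colon against bladder, was -2.84 over the 8 members and 0.01 over all genes in Ctrl, and -2.33 and 0.01 in Y/T KO. Colon and bladder values did not overlap for 6 of the 8 members in Ctrl and 5 of 8 in Y/T KO, beside 57.8% and 60.1% of all genes. *Tpsab1* and *Fcer1a* would not have passed the filter on their colon libraries, nor *Mcpt1* on its bladder libraries. The direction of these genes was thus partly set by the filter, and the counts and medians over the members carry this limit.

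*Cpa3* encodes the carboxypeptidase of mast cell granules. Its 3 Ctrl colon libraries read 0.198, 1.84, and 0.128 TPM and those of Ctrl bladder 12.6, 10.3, and 10.2 TPM. Y/T KO colon read 1.63, 0.579, and 0.961 TPM and Y/T KO bladder 10.3, 10.6, and 11.4 TPM. All 6 bladder libraries lay within a narrow band above all 6 colon libraries. The log2 fold change, colon against bladder, was -4.22 in Ctrl (SE 0.64, limma adjusted p = 0.000206) and -3.07 in Y/T KO (SE 0.64, limma adjusted p = 0.0019), on the scale of log2(TPM + 0.1), which understates the change of low genes.

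*Mcpt4* encodes the chymotrypsin-like chymase of connective tissue mast cells. Ctrl colon read 0.858, 1.33, and 0.208 TPM, whereas Ctrl bladder read 15.5, 13.1, and 8.69 TPM. Y/T KO colon read 1.62, 0.858, and 0.859 TPM and Y/T KO bladder 11.1, 11.1, and 11.9 TPM. The lowest bladder value was thus several times the highest colon value. The log2 fold change was -3.79 in Ctrl (SE 0.47, limma adjusted p = 4.6e-05) and -3.04 in Y/T KO (SE 0.47, limma adjusted p = 0.000244).

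The tryptases followed the same order. *Tpsb2*, the main granule tryptase, read 1.20, 1.15, and 0 TPM (Ctrl colon), 8.33, 8.89, and 5.90 TPM (Ctrl bladder), 4.23, 0.226, and 1.04 TPM (Y/T KO colon), and 9.95, 5.58, and 8.29 TPM (Y/T KO bladder). No colon library reached the lowest bladder library, but Y/T KO colon of mouse 759 came near it. The log2 fold change was -3.62 in Ctrl (SE 1.05, limma adjusted p = 0.0146) and -2.48 in Y/T KO (SE 1.05, limma adjusted p = 0.0708). The Y/T KO difference passed with the colon library of mouse 759 left out (log2 -3.44, adjusted p = 0.0182) and had an adjusted p of 0.0129 to 0.245 over all settings. *Tpsab1*, the neighboring tryptase gene, read 0.129, 0.437, and 0 TPM (Ctrl colon), 2.73, 5.54, and 4.03 TPM (Ctrl bladder), 0.323, 0.0702, and 0.625 TPM (Y/T KO colon), and 3.91, 1.67, and 3.77 TPM (Y/T KO bladder). Its colon values stayed below 1 TPM and its bladder values above, with log2 fold changes of -3.95 in Ctrl (SE 0.66, limma adjusted p = 0.000423) and -2.78 in Y/T KO (SE 0.66, limma adjusted p = 0.00439).

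*Mcpt1*, the chymase that marks mucosal mast cells, ran in the opposite direction. Ctrl colon read 0.537, 0.934, and 2.30 TPM and Y/T KO colon 3.38, 2.06, and 2.84 TPM, whereas all 6 bladder libraries listed it at 0. No fold is given against libraries at 0, but the difference passed the test in Ctrl (limma adjusted p = 6.84e-05) and in Y/T KO (limma adjusted p = 6.34e-06). *Mcpt2*, the other mucosal chymase, stayed low in both tissues, at 0 to 1.53 TPM in colon with a median of 0.196 and at 0 to 0.269 TPM in bladder with a median of 0.0463. It did not pass the filter and was not tested.

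*Cma1*, a chymase with elastase-like cleavage in rodents, was the most abundant member in both tissues, with a median of 14.8 TPM over 6 colon libraries and 17.8 TPM over 6 bladder libraries. It read 11.7, 13.6, and 21.1 TPM (Ctrl colon), 21.9, 15.6, and 14 TPM (Y/T KO colon), 17.8, 17.8, and 15 TPM (Ctrl bladder), and 18.8, 13.4, and 18.2 TPM (Y/T KO bladder). The 4 groups overlapped. The log2 fold change, colon against bladder, was 0.09 in Ctrl (95% interval -0.45 to 0.63, limma adjusted p = 0.783) and 0.29 in Y/T KO (-0.25 to 0.83, limma adjusted p = 0.349). In Ctrl its sign turned to -0.17 with TPM as deposited, without size factors, a setting that moved the median of all genes from 0.01 to -0.24, so that the direction of *Cma1* cannot be given. Both intervals of *Cma1* nevertheless lie above the Ctrl differences of the 4 genes above, which were -1.96 or lower under every setting.

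The remaining members were low or varied widely. *Hdc* read 3.05, 6.45, and 1.25 TPM (Ctrl colon) against 10.6, 24.8, and 13.1 TPM (Ctrl bladder), apart but with a log2 fold change of -2.07 that missed the threshold (SE 0.88, limma adjusted p = 0.074). In Y/T KO mice *Hdc* overlapped between tissues, with colon at 1.55, 0.632, and 4.56 TPM (log2 fold change -1.06, SE 0.88, limma adjusted p = 0.344). *Fcer1a*, the IgE-binding chain, was listed at 0 in 5 of 6 colon libraries, reached 0.63 TPM in the colon of Y/T KO mouse 759, and ran from 0 to 1.43 TPM in bladder (limma adjusted p = 0.099 in Ctrl and 0.0765 in Y/T KO). *Ms4a2*, the signal-amplifying chain, reached 0.111 TPM in colon and lay between 0.173 and 0.451 TPM in bladder, with no overlap, but was too low to be tested. Hence both defining IgE receptor chains were at or near 0 in whole colon, and the mast cell label rests there on the proteases.

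**Figure D2:**
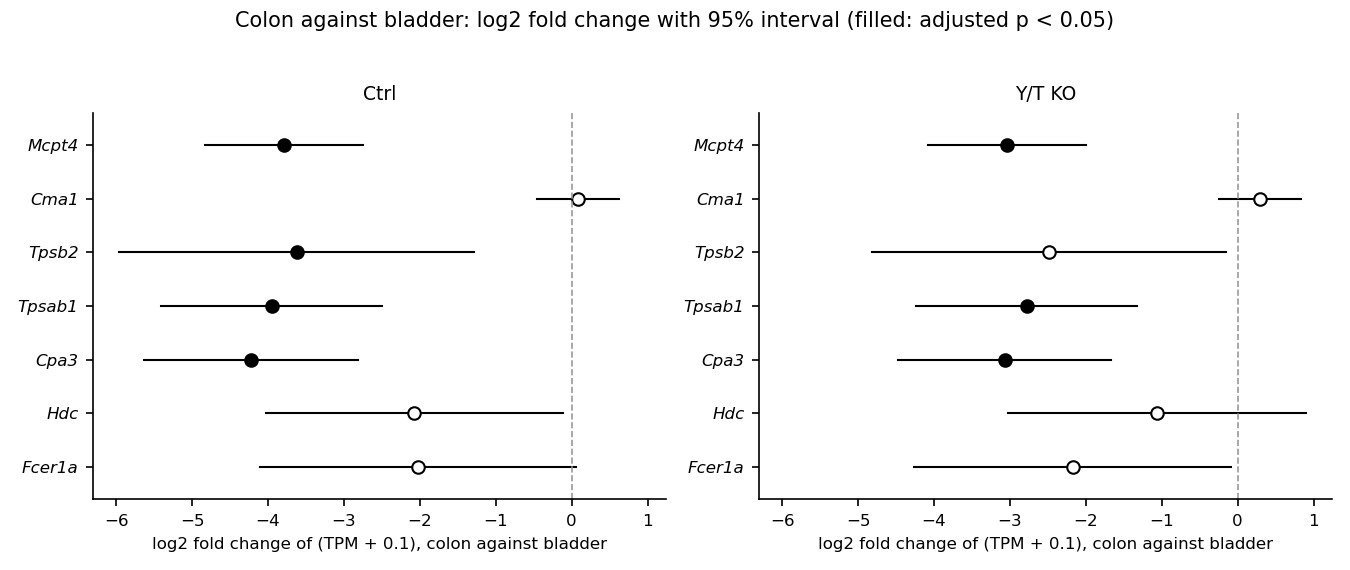
Log2 fold change of TPM + 0.1, colon against bladder, with 95% intervals from limma, for the 7 members tested other than *Mcpt1*, which was listed at 0 in bladder (left, Ctrl; right, Y/T KO; filled, adjusted p under 0.05). *Mcpt4*, *Tpsab1*, and *Cpa3* lie left of 0 in both genotypes, *Tpsb2* passed in Ctrl, and the interval of *Cma1* spans 0.

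Within the chymases the make-up of the 2 tissues was different. *Cma1* made up 77.0% to 89.4% of the summed chymase TPM in colon and 53.5% to 62.9% in bladder. *Mcpt4* made up 0.881% to 8.23% in colon and 36.3% to 46.5% in bladder, and *Mcpt1* made up 4.06% to 15.6% in colon and 0% in bladder. The colon and bladder shares of these 3 genes did not overlap in any library. The summed TPM of the 10 members ran from 17.9 to 36.8 in colon and from 44.6 to 81.7 in bladder, and *Cma1* alone was 52.4% to 84.5% of it in colon and 21.8% to 30.1% in bladder.

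The ratio of *Cma1* to *Cpa3*, genes that are usually stored together, lay between 1.27 and 1.83 in the 6 bladder libraries (median 1.53). In colon it ran from 7.40 to 165 (median 20.8). The ratio of *Mcpt4* to *Cpa3* was by contrast similar, from 0.85 to 1.27 in bladder (median 1.06) and 0.72 to 4.33 in colon (median 1.23). The most uneven library was Ctrl colon of mouse 787, with *Cma1* at 21.1 TPM, *Cpa3* at 0.128 TPM, *Mcpt4* at 0.208 TPM, and both tryptases at 0. Colon *Cma1* was read at a coverage of 20.6 to 43.2 reads per base, whereas colon *Cpa3* was read at 0.20 to 3.21. The part of this thin coverage in the spread of the ratio was not tested.

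**Figure D3:**
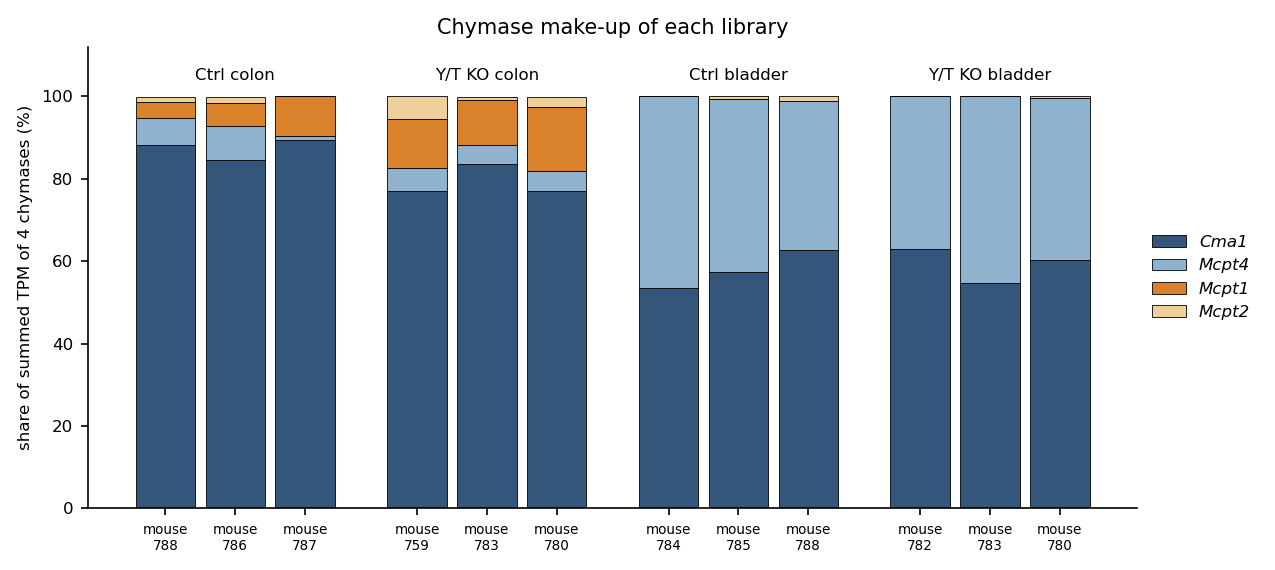
Share of each chymase gene in the summed TPM of the 4 chymase genes, in percent, with 1 bar per library and mouse numbers below the bars. *Mcpt4* holds 36.3% to 46.5% of every bladder bar and at most 8.23% of a colon bar, and *Mcpt1* appears in the 6 colon bars alone.

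The tissues also differed in the cells they hold, and the part of this in the results was not tested. All 8 smooth muscle markers were lower in colon in both genotypes (summed TPM 7482 to 8199 in Ctrl colon and 34870 to 45440 in Ctrl bladder), and 5 of 6 epithelial markers were higher in colon (6881 to 9799 and 2256 to 2565). The 4 pan-leukocyte markers summed to 127.5 to 151.5 TPM in Ctrl colon and 256 to 328.2 TPM in Ctrl bladder. Of these 4, 3 were called lower in Ctrl colon. In Y/T KO mice the sums overlapped between tissues (144 to 241.8 TPM in colon and 181.9 to 280.4 TPM in bladder), with 2 of 4 lower in colon and 1 called. The 4 basophil markers summed to 1.55 to 3.69 TPM in Ctrl colon against 27.1 to 51.1 TPM in Ctrl bladder, and to 3.65 to 7.23 against 33.1 to 35 TPM in Y/T KO mice. *Cd200r3*, which mast cells share, made up most of the bladder sums and was called lower in colon in both genotypes. *Il3ra* was called lower in Ctrl colon (medians 1.94 and 6.09 TPM, limma adjusted p = 0.00906 in Ctrl and 0.616 in Y/T KO). *Mcpt8* and *Prss34*, basophil proteases and close relatives of the members on chromosomes 14 and 17, stayed at or below 0.417 TPM in every library. The 4 eosinophil markers summed to 0.943 to 2.65 TPM in colon and 1.33 to 3.68 TPM in bladder. Of these, *Epx* was listed at 0 in all 12 libraries, and *Ccr3* was called lower in Y/T KO colon than in Y/T KO bladder (limma adjusted p = 0.0311). *Ccr3* passed the filter through bladder alone.

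The second question was whether loss of YAP and TAZ in smooth muscle changed the mast cell genes. None of the members was called in either tissue. In the colon 6 members were tested and 0 passed (limma adjusted p), beside 0.137% of all 17500 genes, and 1 of the 6 (*Mcpt1*) had an unadjusted p under 0.05. In the bladder 7 were tested and 0 passed, beside 0.302% of 18237 genes, and 0 had an unadjusted p under 0.05. Few genes of any kind were called for genotype, 24 in the colon, which became 73 in 1 fit of all libraries with the mouse as a block, again with 0 members. In simulated libraries, 200 genes drawn from all those tested were changed. The noise was normal, with the spread that limma had estimated for each gene, so outlying libraries were not modeled. The test recovered 31.5% (colon) and 41.5% (bladder) of changes of 1 on the log2 scale, and 85.5% and 78.0% of changes of 2. These shares describe genes in general and not the members. A change of 1 could thus be missed. For members with a large SE, such as *Cpa3* (0.80) and *Tpsb2* (1.27) in colon, a change of 2 could be missed as well.

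In the bladder the granule proteases were measured tightly and the intervals are narrow. *Cpa3* was at 11 ± 1.62 rescaled TPM in Ctrl and 10.7 ± 0.777 in Y/T KO (SD, n = 3), a log2 fold change of -0.03 with a 95% interval of -0.39 to 0.33 (limma adjusted p = 0.948). *Cma1* was at 16.8 ± 2.09 and 16.7 ± 2.38 rescaled TPM (SD, n = 3), a log2 fold change of -0.02 with an interval of -0.40 to 0.36 (limma adjusted p = 0.972). *Mcpt4* (log2 fold change -0.09, interval -0.66 to 0.49), *Tpsb2* (0.02, -0.60 to 0.65), and *Tpsab1* (-0.42, -1.36 to 0.51) were bounded less closely, and *Fcer1a* (1.19, -1.08 to 3.45) hardly at all.

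In the colon the intervals were wide. The median of *Mcpt1* was 0.934 TPM in Ctrl against 2.84 TPM for Y/T KO. The Ctrl library of mouse 787 (2.30 TPM) exceeded the Y/T KO library of mouse 783 (2.06 TPM), so the genotypes overlapped. The log2 fold change was 1.30 (SE 0.50, 95% interval 0.14 to 2.46), which did not pass after adjustment (limma adjusted p = 0.488). As a share of the chymases *Mcpt1* made up 4.06%, 5.79%, and 9.71% in the Ctrl colons, and 11.9%, 11%, and 15.6% in the Y/T KO colons. These shares did not overlap, a comparison picked after the values were seen and given without a test.

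*Mcpt2* read 0.159, 0.233, and 0 TPM (Ctrl colon) against 1.53, 0.143, and 0.453 TPM (Y/T KO colon), highest in mouse 759. The colon of this mouse was also the highest of the 3 Y/T KO colons for *Mcpt1*, *Mcpt4*, *Cma1*, *Tpsb2*, *Cpa3*, and *Fcer1a*. The log2 fold changes of the other colon members were 1.12 for *Cpa3* (SE 0.80), 1.15 for *Tpsb2* (SE 1.27), 0.67 for *Mcpt4* (SE 0.58), 0.20 for *Cma1* (SE 0.28, interval -0.45 to 0.85), and -0.73 for *Hdc* (SE 0.77). All had a limma adjusted p of 0.675 or more. The median over the 6 was 0.90 and over all genes 0.01, with none of the 6 apart between genotypes, beside 15.8% of all genes. These changes rest on single libraries: without Ctrl mouse 787 they were -0.05 for *Tpsb2*, 0.06 for *Mcpt4*, and 0.57 for *Cpa3*, without Ctrl mouse 786 that of *Cpa3* was 2.04, without Y/T KO mouse 759 that of *Cma1* was 0.02, and without Y/T KO mouse 783 that of *Hdc* was -0.08. Macrophage markers, 6 of 6 higher and 0 called, summed to 401.4 to 532.8 TPM (Ctrl) and 526 to 785.2 TPM (Y/T KO), and pan-leukocyte markers, 4 of 4 higher and 0 called, to 127.5 to 151.5 and 144 to 241.8 TPM. The 8 smooth muscle markers, all lower, with 0 called in limma but 6 at an unadjusted p under 0.05, summed to 7482 to 8199 and 4899 to 5741 TPM. Their part in the colon values was not tested.

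**Figure D4:**
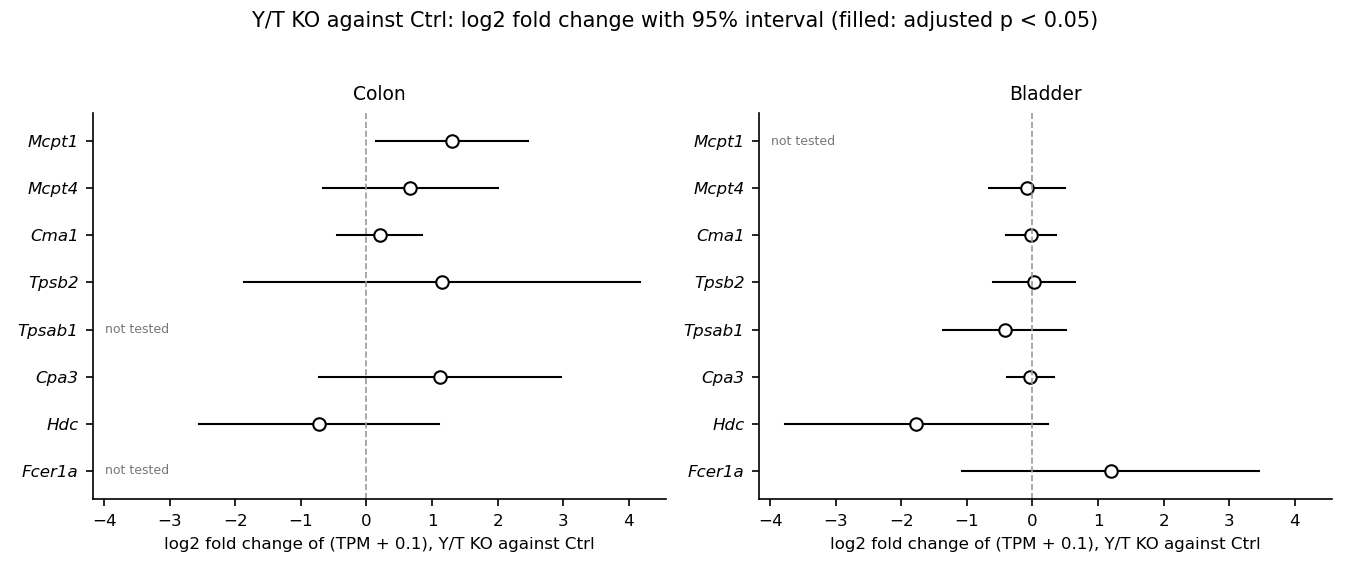
Log2 fold change of TPM + 0.1, Y/T KO against Ctrl, with 95% intervals from limma, in colon (left) and bladder (right). Open points did not pass an adjusted p of 0.05, which holds for all points shown; the intervals of *Cpa3* and *Cma1* in bladder are the narrowest and that of *Tpsb2* in colon the widest.

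*Hdc* varied widely in the bladder. Ctrl mice 784, 785, and 788 read 10.6, 24.8, and 13.1 TPM, and Y/T KO mice 782, 783, and 780 read 10.6, 1.08, and 6.86 TPM. It was the 1 member of 7 whose genotypes did not overlap, beside 20.4% of all genes, and the gap between Ctrl mouse 784 (10.60 TPM) and Y/T KO mouse 782 (10.56 TPM) was slight. The log2 fold change was -1.77 (SE 0.82, 95% interval -3.77 to 0.23, limma adjusted p = 0.378), and -0.85 with Y/T KO mouse 783 left out. *Hdc* is also transcribed in neutrophils and other myeloid cells. Mouse 783 was lowest and mouse 785 highest as well for *Srgn*, with 54.0 and 376 TPM, and for the neutrophil gene *S100a8*, with 5.14 and 57.3 TPM. The neutrophil list did not share this order throughout. *Retnlg* had its lowest bladder value, 8.56 TPM, in a Ctrl library and read 10.5 to 16.76 TPM in Y/T KO. *Ly6g* stayed at 0 to 0.299 TPM in bladder. *Srgn* over these libraries read 125, 376, and 201 TPM (Ctrl) against 146, 54.0, and 137 TPM (Y/T KO), which differed by -1.05 on the log2 scale (adjusted p from limma 0.404, SE 0.51). The 5 neutrophil markers summed to 63.5 to 208.8 TPM (Ctrl) and 34.5 to 105.8 TPM (Y/T KO), with 4 of 4 tested lower and 0 called. *Cpa3* did not share this order, at 10.3 TPM in mouse 785 and 10.6 TPM in mouse 783. The part of myeloid cells in the *Hdc* values was not tested.

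**Figure D5:**
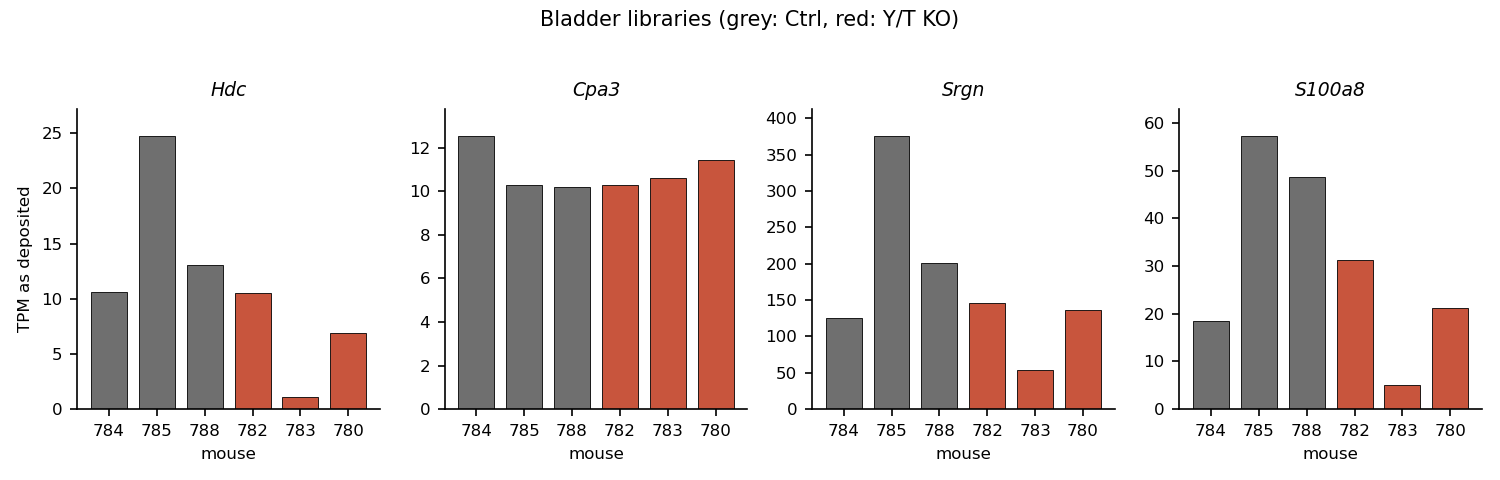
TPM of *Hdc*, *Cpa3*, *Srgn*, and *S100a8* in the 6 bladder libraries, with 1 bar per mouse (grey, Ctrl; red, Y/T KO) and a linear axis from 0 for each gene. *Hdc*, *Srgn*, and *S100a8* are highest in mouse 785 and lowest in mouse 783, whereas *Cpa3* stays between 10.2 and 12.6 TPM. *Retnlg*, another neutrophil marker, is not shown and did not share this order.

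The knockout effect was then compared between tissues in 1 model over all 12 libraries. None of 8 members passed the interaction term (limma adjusted p of 0.481 or more), beside 0.0607% of all 19773 genes, and 0 had an unadjusted p under 0.05. The estimate for *Mcpt1* was 1.29 (SE 0.68), which rests on colon values alone since bladder was at 0. Those of *Cpa3*, *Tpsb2*, and *Tpsab1* were 1.15, 1.14, and 1.17 with SE of 0.90, 1.49, and 0.94, and that of *Cma1* was 0.20 with an interval of -0.57 to 0.96.

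Within groups, some members moved together from library to library. Over the deviations of all 12 libraries from their group means, Pearson's r to *Cpa3* was 0.75 for *Mcpt4*, 0.67 for *Tpsab1*, 0.63 for *Tpsb2*, and 0.41 for *Hdc*, but -0.17 for *Mcpt1* and -0.19 for *Cma1*. The spread of *Cpa3* lay mainly in colon, above all Ctrl colon (0.128 to 1.84 TPM), since its 6 bladder libraries stayed at 10.2 to 12.6 TPM. These r values thus rest mostly on few colon libraries with low *Cpa3*. *Mcpt1* was at 0 in all 6 bladder libraries and did not vary there. Over the 6 colon libraries, r to *Mcpt1* was 0.88 for *Cma1* and -0.65 for *Mcpt4*. The r of *Cma1* to *Mcpt1* and to *Cpa3* came from different sets of libraries and cannot be ranked. Both describe few libraries that share their groups and scaling. Among all genes outside the members the values most like *Cpa3* belonged to *Tgfbr1*, *Lrrc19*, *Ddx3y*, *Ctcf*, *Tgfbr3*, *Zfp449*, *Pcdhgb7*, *AC073683.1*, *P2ry4*, and *Gm30414* (r = 0.96 to 0.98 over 12 libraries, of 19773 genes). Those most like *Mcpt1* belonged to *Atp6v1h*, *Podnl1*, *Ube2j1*, *Grhl1*, *Aven*, *Abracl*, *Gm10145*, *Prkab1*, *Mrpl57*, and *Igkv15-103* (r = 0.98 to 0.99 over 6 libraries, of 19584 genes). None of these is a classical mast cell gene. These are the highest of many correlations over few libraries, given as a description.

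Other genes of the mast cell program gave a mixed picture. Of 24 further genes, 19 were tested between tissues in Ctrl, with 4 called higher and 9 lower in colon, and 3 higher and 6 lower in Y/T KO, while 0 were called for genotype in either tissue (18 tested in colon and 16 in bladder). These counts and those of the 3 lists that follow are to be read beside the 50.4% (Ctrl) and 51.3% (Y/T KO) of all genes called between tissues, and nothing particular to a list is drawn from them. For genotype, 5 of the 18 tested in colon and 4 of the 16 in bladder had an unadjusted limma p under 0.05. Over all genes these were 1702 of 17500 in colon and 2707 of 18237 in bladder. On the bladder side with *Cpa3* were *Mrgprb2*, the peptide receptor of connective tissue mast cells (0 to 0.0989 TPM in colon, 0.426 to 1.93 in bladder, limma adjusted p = 0.000342 in Ctrl and 0.000608 in Y/T KO), and *Gata2*, a factor that mast cells need but endothelium also makes (0.817 to 1.33 TPM in colon, 16.8 to 29.5 in bladder, adjusted p = 2.89e-08 and 4.51e-08). *Mrgprb2* passed the filter through bladder alone, so its direction was partly set by the filter. *Cd200r3*, a receptor of mast cells and basophils, stood at 0.11 to 0.89 TPM in colon and 21.6 to 43.9 TPM in bladder (limma adjusted p = 2.42e-06 and 3.01e-06).

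The 4 genes called higher in Ctrl colon were *Tpsg1*, a membrane-anchored tryptase beside the other 2 on chromosome 17, *Tph1*, *Rgs13*, and *Kit*, and the first 3 were also called in Y/T KO. *Tph1*, the tryptophan hydroxylase of serotonin synthesis, is shared with enterochromaffin cells (4.69 to 17.4 TPM in colon and 0 to 1.95 in bladder, limma adjusted p = 0.00036 and 0.00331). *Rgs13*, a regulator of G protein signaling, was at 1.03 to 3.62 TPM in colon and 0 to 0.363 TPM in bladder (limma adjusted p = 8.09e-05 and 0.00793). *Tpsg1* was at 20.5 to 42.0 TPM in colon and 0 to 0.235 TPM in bladder (limma adjusted p = 2.76e-07 in Ctrl and 1.22e-07 in Y/T KO), opposite to *Tpsb2* and *Tpsab1*. *Tpsg1*, *Tph1*, and *Rgs13* passed the filter through colon alone, which partly set their direction. Their colon genotypes did not overlap, though none was called. Ctrl and Y/T KO colon were at 20.5 to 24.4 and 27.4 to 42.0 TPM (*Tpsg1*), 13.5 to 17.4 and 4.69 to 9.45 TPM (*Tph1*), and 1.54 to 3.62 and 1.03 to 1.37 TPM (*Rgs13*). Such a gap was seen in 15.8% of all genes tested in colon. *Kit*, the stem cell factor receptor, is shared with interstitial cells of Cajal, the pacemaker cells of the gut wall. It read 27.9, 33.8, and 42.9 TPM (Ctrl colon) against 18.7, 12.4, and 12.9 TPM (Ctrl bladder, limma adjusted p = 0.00134). In Y/T KO mice *Kit* did not pass (limma adjusted p = 0.183), at 20.31 to 48.37 TPM in colon and 23.35 to 27.97 TPM in bladder. Its bladder values were higher in Y/T KO than in Ctrl without overlap, although not called, whereas its colon values overlapped between genotypes.

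Of 19 genes that feed and attract mast cells 15 were tested between tissues, with 2 called higher and 7 lower in Ctrl colon, and 3 higher and 4 lower in Y/T KO colon, and 0 were called for genotype in either tissue. An unadjusted limma p under 0.05 for genotype was reached by 5 of 11 tested in colon and 1 of 12 in bladder. *Kitl*, the growth factor for KIT, was at 26.2 to 53.3 TPM in colon and 19.6 to 22.5 TPM in bladder (limma adjusted p = 0.000369 in Ctrl and 0.00224 in Y/T KO). *Il33*, an alarmin that activates mast cells, was at 8.73 to 20.8 TPM in colon and 35.7 to 70.8 TPM in bladder (limma adjusted p = 0.00164 and 0.00216). *Madcam1*, the gut addressin for progenitors that carry the integrin of *Itgb7*, was at 1.58 to 5.46 TPM in colon and listed at 0 in all bladder libraries. It thus passed the filter through colon alone. Its colon values were 1.58 to 2.56 TPM in Ctrl and 5.17 to 5.46 TPM in Y/T KO, apart but not called for genotype.

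All 14 genes of IgE receptor signaling were tested, with 1 called higher and 8 lower in Ctrl colon, 3 higher and 4 lower in Y/T KO colon, and 0 for genotype. For genotype, 1 of 14 in colon and 4 of 14 in bladder had an unadjusted limma p under 0.05. *Fcer1g*, the chain shared with other myeloid receptors, was at 47.6 to 145 TPM in colon and 120 to 179 TPM in bladder, far above *Fcer1a* and *Ms4a2*, and *Syk*, the kinase it recruits, was at 23.7 to 37.6 and 12 to 21.3 TPM. In colon *Fcer1g* read 47.6 to 74.4 TPM in Ctrl and 90.3 to 145 TPM in Y/T KO, apart but not called for genotype. Among 12 receptors and clearance genes of mast cell mediators, 9 were tested between tissues, with 3 called higher and 5 lower in Ctrl colon, and 2 higher and 6 lower in Y/T KO colon. *Aoc1*, the diamine oxidase that degrades histamine, was at 103 to 218 TPM in colon and 0.311 to 0.572 TPM in bladder (limma adjusted p = 7.18e-11 in Ctrl and 1.25e-10 in Y/T KO). It passed the filter through colon alone. Its colon values were 191 to 218 TPM in Ctrl and 103 to 171 TPM in Y/T KO, apart but not called for genotype. *Hrh1*, the histamine receptor on smooth muscle, was the only gene of this list called for genotype, lower in Y/T KO colon (9.66, 8.46, and 8.81 TPM against 0.717, 1.13, and 1.07 TPM, limma adjusted p = 0.00981). Without Ctrl mouse 787 its adjusted p was 0.0592.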

How the data were processed

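The authors prepared stranded mRNA libraries from snap-frozen tissue and deposited a StringTie table for each of the 12 libraries with coverage (mean reads per base), FPKM, and TPM per gene; their processing notes also name HISAT2 and GRCm38, without versions. Rows were added up by gene ID, and coverage was used for description. Size factors (medians of ratios) were set within a tissue for genotype, and over all 12 libraries for tissue and the interaction, and TPM was divided by them. A gene entered the test with 0.5 TPM or more in 3 or more libraries. The test was limma 3.58.1 in R 4.3.3 (trend and robust options, two-sided), run on log2(TPM + 0.1) with Benjamini-Hochberg adjustment, tested on simulated data first. Replicates are separate mice, and 3 mice gave both tissues: their same-mouse correlations of deviations were -0.00913, 0.0675, and 0.0437. Named genes are the 10 members, the genes most like *Cpa3* and *Mcpt1*, and genes of written lists that were called or abundant. Other genes were named after their values were seen. The members and lists were chosen with earlier results of these data known. TPM holds no counts, so counting error was not estimated. Alternatives were pseudocounts of 0.5 and 1, other filters, TPM or FPKM as deposited, plain eBayes, 1 fit of all libraries, the mouse as a block, and each library left out.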

Additional observations from a re-analysis of the deposited data

Results flagged for a closer look

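The Y/T KO effect on *Hrh1*, the histamine receptor of smooth muscle, differed between tissues by a log2 of -3.43 in the interaction term (limma adjusted p = 0.00109): *Hrh1* was lower in Y/T KO colon, whereas bladder read 1.82, 1.95, and 1.91 TPM (Ctrl) against 2.23, 2.63, and 2.44 TPM (Y/T KO). None of the mast cell genes differed in this way.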

How the results depend on the processing

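No setting called a member for genotype or in the interaction. *Cpa3*, *Mcpt1*, *Mcpt4*, and *Tpsab1* were called between tissues in both genotypes under every setting, also without the filter on low values. Where the filter was used, *Mcpt1* and *Tpsab1* passed it only through the tissue where they were high. The calls of *Tpsb2* in Y/T KO mice depended on the setting. Its adjusted p was 0.022 and 0.0129 with a pseudocount of 0.5 and 1 TPM, 0.0467 with TPM and 0.0346 with FPKM as deposited, and 0.0182 without the colon library of mouse 759 (log2 -2.02, -1.70, -2.74, -2.40, and -3.44). *Hdc* was called in Ctrl with a pseudocount of 1 TPM (adjusted p = 0.047), and *Fcer1a* without Ctrl bladder 788 (0.0142) or Y/T KO colon 759 (0.0125). Without the filter *Ms4a2* was called in Ctrl and *Mcpt2* in Y/T KO mice. The number of genes called for genotype in the colon, 24, became 6 without the filter and 69 with all libraries in 1 fit, and ran from 6 to 69 with 1 library left out (69 without Y/T KO 759). In the bladder, 55 became 19 to 51 with 1 library left out. The interaction, 12 genes, became 19 with a pseudocount of 1, 22 without trend and robust, and 8 to 32 with 1 library left out. With the mouse as a replicate block (consensus correlation 0.0516) the colon count was 73 and no call of a member changed. *Cma1* in bladder reversed to 0.00 with FPKM as deposited, and its tissue difference in Ctrl to -0.17 with TPM and -0.03 with FPKM as deposited. With 1 library left out, changes near 0 reversed. The genotype change of *Tpsb2* ran from -0.05 to 2.08 in colon and -0.18 to 0.23 in bladder, and the bladder changes of *Mcpt4*, *Cma1*, and *Cpa3* from -0.35 to 0.11, -0.12 to 0.11, and -0.10 to 0.09. The tissue difference of *Cma1* in Ctrl ran from -0.19 to 0.26, and the interaction from -0.11 to 2.07 for *Tpsb2* and -1.15 to 0.86 for *Fcer1a*. *Hrh1* in colon had an adjusted p of 0.0592 without Ctrl 787. The depth behind low members limits all of this, since a coverage under 1 read per base lay behind *Ms4a2* and all colon values of *Tpsab1*. It also lay behind some values of other members. Among these were *Hdc* in bladder of Y/T KO mouse 783 (0.520) and *Mcpt4* in colon of Ctrl mouse 787 (0.339). *Cpa3* in colon of Ctrl mice 788 and 787 (0.339 and 0.200) was another case.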
